A study of Homo sapiens with 5 samples.

Results

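The regions described here are the BG4 binding regions in the outermost 5 Mb or so of 9 large autosomes of LNCaP cells. LNCaP is an established line from a human prostate cancer and responds to androgen. They were chosen by position. Overlapping peaks of the 4 BG4 replicates were merged, and a merged region was kept if at least 2 of the 4 lists had a peak in it and if it lay near an end of chromosome 2, 3, 5, 6, 7, 8, 9, 10 or 12. Near an end means a start below 5 Mb, or above 238, 193, 175, 166, 154, 141, 136, 130 and 128 Mb on these chromosomes in that order (hg19). This left 171 regions, 4.81% of the 3554 such regions on chromosomes 1 to 22, X and Y. The same 9 chromosomes held 1191 more in their interior, which is the comparison throughout.

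The study has 5 samples, 4 BG4 pull-downs and 1 input, all from sonicated LNCaP chromatin fixed with formaldehyde. The labels name no treatment or genotype and do not say whether cultures were separate, so the spread between the 4 lists may be technical. BG4 is an antibody fragment that recognises G-quadruplexes (G4s), DNA structures of 4 strands in which guanines from separate runs stack in planes. The lists held 6476, 1640, 3645 and 2144 peaks on the chromosomes named above for replicates 1, 2, 3 and 4. The weakest summit of a list rested on 6 or 7 reads, so the values of single weak peaks carry a large counting error.

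G4s form where several runs of guanine lie close together, and they are known from gene promoters and from the telomere repeat itself. The DNA just inside the telomeres, the subtelomere, is rich in GC and in genes at many human chromosome ends, and its outermost stretch also carries blocks that are copied between chromosomes. The far ends of the long arms of chromosomes 8 and 9 are known as gene-dense bands. Each chromosome is numbered from the tip of its short arm, so the low coordinates are the short-arm end and the high coordinates the long-arm end.

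The ends were denser than the interior. They made up 6.19% of the length of the 9 chromosomes and held 12.6% of their consensus regions, that is 1.83 regions per Mb against 0.841 per Mb in the interior, a ratio of 2.18. The peaks of replicates 1, 2, 3 and 4 had densities of 3.81, 0.985, 1.87 and 1.08 per Mb at the ends, and of 1.59, 0.369, 0.859 and 0.511 per Mb in the interior. The ends were therefore the denser part in each of the 4 lists, although the lists differ widely in length. The ratio of the 2 densities was 2.34 ± 0.25 (SD, n = 4) and ranged from 2.12 to 2.67 (two-sided exact sign-flip permutation test over the 4 lists, p = 0.13, which is 2 of 16 sign flips and the smallest p that 4 lists allow, adjusted p = 0.188 over 6 comparisons). With windows of 2 Mb in place of 5 Mb, the ratio of consensus densities was 3.25.

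The regions lay mainly at the long-arm ends. Of the 171 regions, 126 (73.7%) were at the 9 long-arm ends and 45 at the 9 short-arm ends. The long-arm ends held 2.61 regions per Mb, 3.10 times the interior, and the short-arm ends 1.00 per Mb, 1.19 times the interior. Chromosome 7 alone gave 13 of the 45 short-arm regions. Only 5 of the 9 short-arm ends were denser than their own interior, against 8 of the 9 long-arm ends, by the ratio alone. In peaks of the single lists the long-arm ends had 3.54, 3.86, 3.13 and 2.83 times the interior density in replicates 1 to 4. The short-arm ends had 1.17, 1.38, 1.16 and 1.35 times. In each list the value of the long-arm ends thus lay above that of the short-arm ends. This split was chosen after the values were seen and was not tested.

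**Figure D1:**
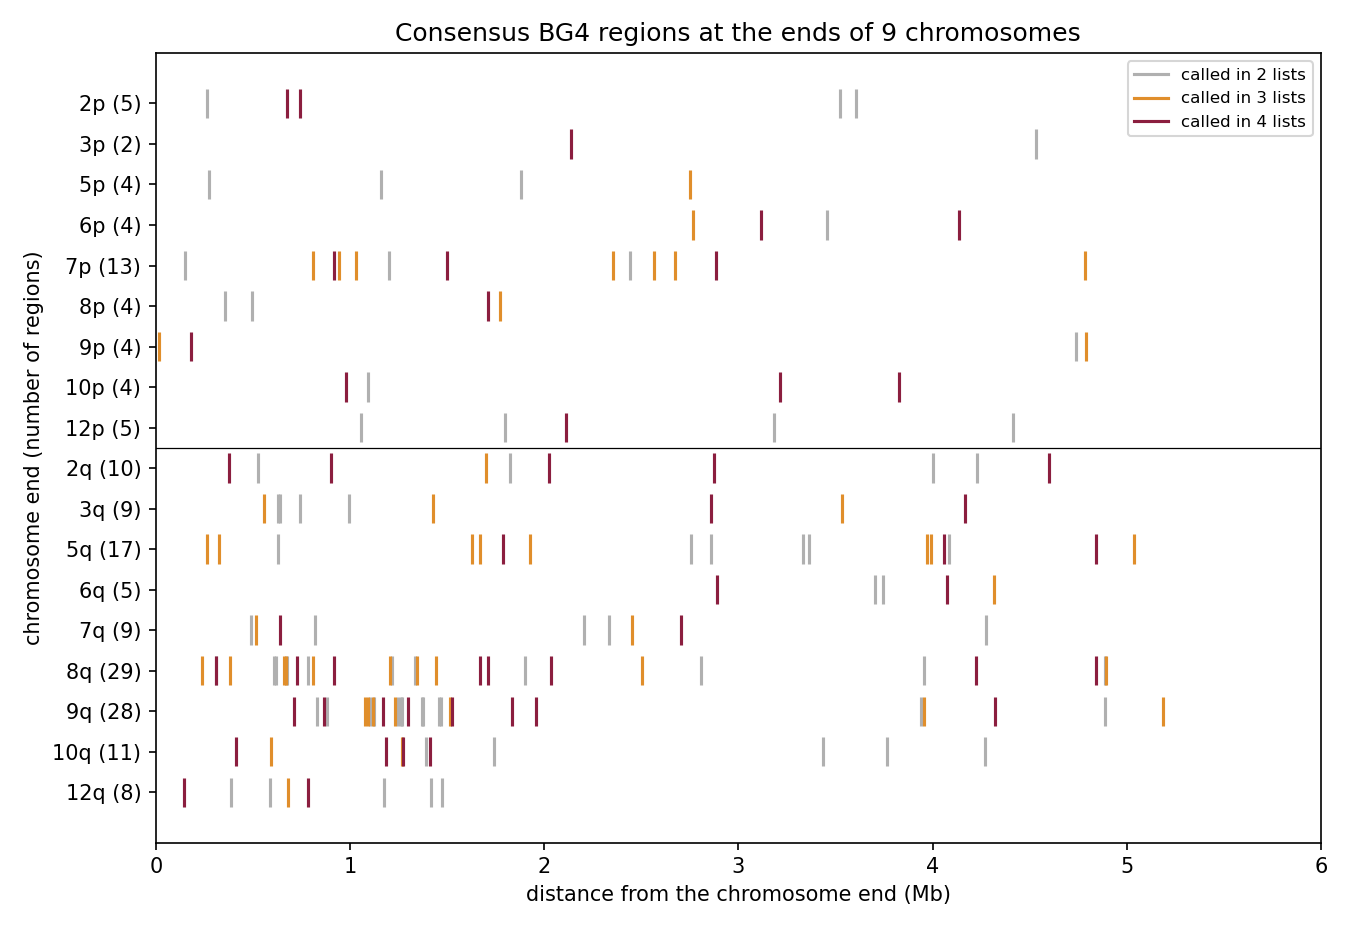
Distance in Mb from the chromosome end (horizontal axis) of each of the 171 regions, with 1 row for each of the 18 ends, p for the short-arm and q for the long-arm end, and the number of regions in brackets. The colour of a line gives the number of lists that called the region. In the outer 2 Mb lie 21 of the 29 regions of the long-arm end of chromosome 8 and 23 of the 28 of chromosome 9.

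The long-arm ends of chromosomes 8 and 9 held 57 of the 171 regions, or 33.3%. Together they had 5.39 regions per Mb, 6.41 times the interior of all 9 chromosomes, and the other 16 ends had 1.38 per Mb, 1.64 times. Without chromosomes 8 and 9 altogether, 106 regions remained and the ratio of ends to interior was 1.72. The ratio in peaks of the single lists was then 1.86 ± 0.21 (SD, n = 4).

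Each end was also compared with its own chromosome. The test was a two-sided exact binomial test on consensus regions, and p-values were adjusted after Benjamini and Hochberg for the 46 ends of chromosomes 1 to 22 and X. Of the 18 ends, 5 were denser than their chromosome (27.8%), 0 were sparser, with or without the adjustment, and 13 did not pass. Over all 46 ends tested, 30.4% were denser and 6.52% sparser, so the share of the 18 ends that passed is near the background, and density at the ends is not particular to these chromosomes. Among the 28 ends of the other chromosomes 9 were denser and 3 sparser. The 3 sparser ones are the short-arm ends of chromosomes 14, 15 and 22, which hold no assembled sequence in the reference. The test counts neighbouring regions as independent, which makes its p-values too small.

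On chromosome 8 the long-arm end held 29 regions, 5.41 per Mb against 0.721 in its interior, a ratio of 7.5 (exact binomial test, adjusted p = 8.86e-14). In the peaks of replicates 1 to 4 the ratio was 6.07, 8.45, 8.36 and 7.56. No list lay near 1. With windows of 2 Mb the ratio of consensus regions was 12.6, and with windows of 10 Mb it was 3.75. None of the 27 windows of 5 Mb in the interior of chromosome 8 was as dense. The densest of them, from 100 to 105 Mb, held 13 regions, and the median window held 3.

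On chromosome 9 the long-arm end held 28 regions, 5.37 per Mb against 0.924, a ratio of 5.81 (exact binomial test, adjusted p = 3.33e-11). In peaks the ratio was 6.80, 8.55, 6.80 and 4.67 in replicates 1 to 4, again far above 1 in every list. With windows of 2 Mb the ratio of consensus regions was 11.1, and with windows of 10 Mb it was 5.51. Here the density did not stop at the limit of the window. The window from 130 to 135 Mb, close to it on the inside, held 28 regions. That was denser than the end, which had 26.9 per 5 Mb. The median window of the interior held 2.5.

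The remaining dense ends were weaker. The long-arm end of chromosome 5 held 17 regions, 3.76 times its interior (exact binomial test, adjusted p = 4.82e-05), with 4.56, 4.17, 3.79 and 2.94 times in the peaks of replicates 1 to 4. Its interior had 1 denser window of 5 Mb, from 135 to 140 Mb, with 15 regions against 14.4 per 5 Mb at the end. On chromosome 2 the long-arm end held 10 regions, 3.25 times its interior (exact binomial test, adjusted p = 0.0059), with 4.76, 4.07, 3.35 and 3.16 times in the lists. In regions called in all 4 lists the ratio of this end was 7.73. None of the 46 interior windows of chromosome 2 was denser, and the fullest held 9 regions against 9.62 per 5 Mb at the end. The short-arm end of chromosome 7 was the only short-arm end of the 9 that passed. It held 13 regions, 2.33 times its interior (exact binomial test, adjusted p = 0.0269), with 1.97, 2.51, 2.87 and 2.71 times in the lists. On chromosome 7 too, 1 interior window was denser than this end, from 100 to 105 Mb, with 19 regions against 13. When only regions called in all 4 lists were counted, the ends of chromosomes 5 and 7 no longer passed (exact binomial test, adjusted p = 0.239 and 0.427), nor did that of chromosome 7 with lists of equal length (adjusted p = 0.278). Over the 15 alternatives the adjusted p of the exact test ran from 1.16e-05 to 0.239 for chromosome 5 and from 0.0134 to 0.427 for chromosome 7.

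Neither end of chromosome 12 passed the test. The short-arm end held 5 regions, 0.695 times the interior, and the long-arm end 8, 0.95 times (exact binomial test, adjusted p = 0.684 and 1). In peaks the long-arm end ranged from 0.404 times in replicate 4 to 1.52 times in replicate 2, and the short-arm end from 0.357 times in replicate 2 to 1.18 times in replicate 4, so the lists fell on both sides of 1 at both ends. The direction also turned with the window, to 2.01 times at the long-arm end with windows of 2 Mb, and to 1.55 times there and 1.53 times at the short-arm end with windows of 10 Mb. Chromosome 12 also had a dense interior, with 25 regions between 55 and 60 Mb. The short-arm end of chromosome 3 held 2 regions, 0.445 times its interior, and lay below 1 in all 4 lists, from 0.208 to 0.917. It did not pass the exact binomial test (adjusted p = 0.456). With windows of 10 Mb its direction turned as well, to 1.22 times with 11 regions.

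The ends of chromosomes 3, 7 and 10 on the long arm held 9, 9 and 11 regions, 1.99, 1.57 and 2.0 times their interiors, and did not pass (exact binomial test, adjusted p = 0.102, 0.326 and 0.0675). The end of chromosome 10 passed without replicate 3, with a −log10 q of at least 5 and with windows of 2 Mb (adjusted p = 0.0281, 0.0356 and 0.0172 in the same exact test), within a range of 0.0172 to 0.619 over the 15 alternatives. With windows of 2 Mb its ratio was 3.21, and with windows of 10 Mb 1.2. The end of chromosome 3 passed with windows of 2 Mb, at a ratio of 3.31 (exact binomial test, adjusted p = 0.0315, within a range of 0.0315 to 1 over the 15 alternatives), and had a ratio of 0.999 with windows of 10 Mb. The long-arm end of chromosome 3 was denser than its interior in replicates 1, 3 and 4, at 3.09, 2.48 and 2.32 times, but not in replicate 2, at 0.913. The long-arm end of chromosome 6 held 5 regions and its short-arm end 4, the 2 ends of a chromosome with few regions anywhere (0.422 per Mb in the interior). These were 2.31 and 1.89 times the interior, above 1 in all 4 lists at both ends, and did not pass (exact binomial test, adjusted p = 0.133 and 0.405). With windows of 2 Mb both ends of chromosome 6 held 0 regions. The short-arm ends of chromosomes 5, 8, 9 and 10 held 4 regions each, between 0.806 and 1.1 times their interiors, and that of chromosome 2 held 5, at 1.69 times.

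**Figure D2:**
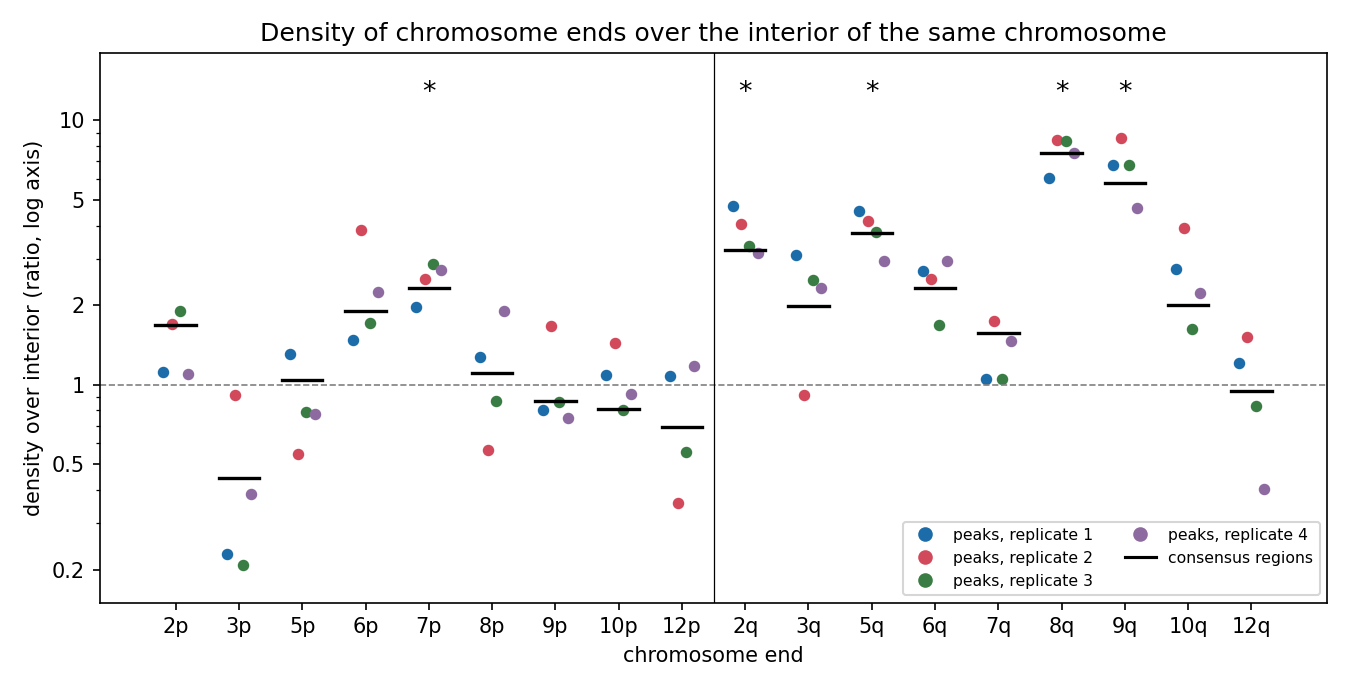
Density at each of the 18 chromosome ends divided by the density in the interior of the same chromosome (vertical log axis). Coloured points are peaks of the 4 lists, black bars are consensus regions, the dashed line is a ratio of 1, and a star marks an adjusted p under 0.05 in the exact binomial test. The 4 lists of the long-arm ends of chromosomes 8 and 9 lie between 4.67 and 8.55, and those of chromosome 12 lie around 1.

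Within the windows the regions were denser towards the tips when the 18 ends were pooled, but not at each end. Of the 171, 105 (61.4%) lay within 2 Mb of the end and 52 within 1 Mb, in windows of 5 Mb or slightly more. The long-arm ends of chromosomes 8 and 9 gave 21 and 23 of the 105. Both ends of chromosome 6 and the short-arm end of chromosome 3 gave 0. The share within 2 Mb was 65.1% at the long-arm ends (82 of 126) and 51.1% at the short-arm ends (23 of 45). At the long-arm ends there were 4.33 regions per Mb in the outermost Mb and 4.78 in the next. The density then fell to 1.44, 1.33 and 1.89 per Mb between 2 and 5 Mb. Without chromosomes 8 and 9 the outermost Mb of the long arms had 3.14 per Mb and the next 2.29. In peaks, the outermost Mb of the long-arm ends had 9.0, 2.33, 4.56 and 1.89 per Mb in replicates 1 to 4, against 4.22, 1.1, 1.89 and 1.22 between 4 and 5 Mb. The outermost Mb was thus the denser of these in all 4 lists.

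The short-arm ends showed a flatter profile, from 1.44 regions per Mb in the outermost Mb to 0.667 between 4 and 5 Mb, where the interior has 0.841. Between 6 and 7 Mb, outside the windows, the short arms had 2.11 regions per Mb, more than in any step inside them. Beyond 5 Mb the long-arm profile dropped to 0.556 and 0.222 per Mb in the next 2 Mb and then rose again to 2.22 between 9 and 10 Mb. The limit of 5 Mb is that of the rule. In the 1 Mb just inside it the 18 windows held 18 regions, and in the 1 Mb just outside it 12. The region closest to a limit lay 24.6 kb from it on the inside and 13.5 kb on the outside. The long-arm windows, which start at a whole Mb, were 5.02 to 5.92 Mb long.

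**Figure D3:**
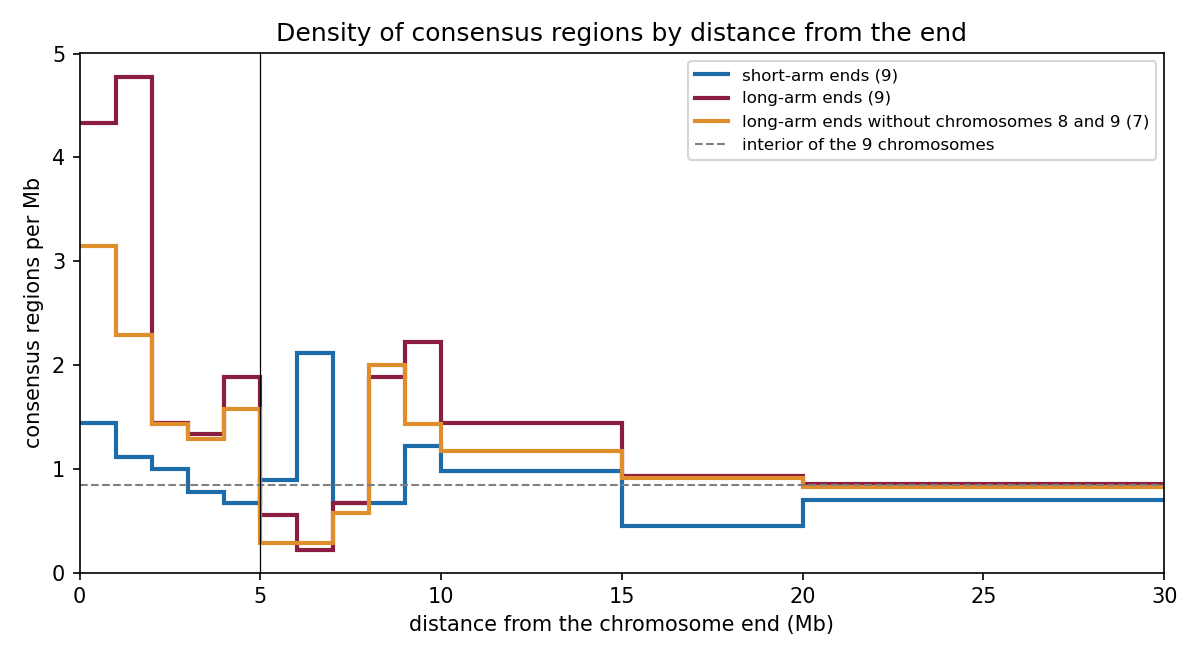
Consensus regions per Mb (vertical axis) by distance from the chromosome end in Mb (horizontal axis), in steps of 1 Mb up to 10 Mb and wider steps beyond. The vertical line marks the limit of the windows at 5 Mb. The long-arm ends stand at 4.33 and 4.78 in the outer 2 steps, and the short-arm ends at 1.44 and 1.1.

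On chromosome 8, 13 of the 29 long-arm regions lay in the outermost Mb and 8 in the next. On chromosome 9 only 4 lay in the outermost Mb, and 19 of the 28 lay between 1 and 2 Mb from the end. The 11 regions of the long arm of chromosome 10 likewise had 6 between 1 and 2 Mb, and all 8 of chromosome 12 lay within 1473 kb of the tip. The 17 of chromosome 5 were spread over the whole window, with 3, 4, 2, 4 and 3 in successive Mb and 1 beyond 5 Mb.

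Regions close to the telomere itself were also counted. The outermost Mb of the short and long arms together held 2.89 regions per Mb, against 0.841 in the interior. Of the 52 regions within 1 Mb of an end, 18 lay within 500 kb, so the outer part of that Mb held fewer than the inner part. At the long-arm ends 11 of 39 lay within 500 kb. Of the 171, 1 lay within 100 kb, a stretch much shorter than the windows. That one is on the short arm of chromosome 9, from 13806 to 14286. Replicates 1, 2 and 3 gave it folds over the local background of 4.29, 4.20 and 3.64, and replicate 4 did not call it. The background under it, which the caller takes from the input where that is higher than the genome level, was 4.20, 6.70 and 5.98 times the genome level in these lists. Whether copied sequence or copy number has a part in this call was not tested. The next nearest were a region of chromosome 12, from 133706795 to 133707278, 145 kb from the long-arm end and called in all 4 lists, and one of chromosome 7, from 149133 to 149439, called in replicates 1 and 4.

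At the other ends the outermost region lay further in. It was 264 kb from the long-arm tip on chromosome 5 (180650478 to 180650935, in 3 lists), 237 kb on chromosome 8 (146126777 to 146127164, in 3 lists), 375 kb on chromosome 2 (242823582 to 242824198, in 4 lists) and 412 kb on chromosome 10 (135122238 to 135123044, in 4 lists). It was 489 kb from the tip on chromosome 7 (158649062 to 158649409, in 2 lists), 558 kb on chromosome 3 (197463709 to 197464104, in 3 lists) and 713 kb on chromosome 9 (140499548 to 140500301, in 4 lists). On chromosome 6 the outer part of both windows held no consensus region. The outermost was 2888 kb from the long-arm tip (168226864 to 168227350, in 4 lists) and 2765 kb from the short-arm tip (2765238 to 2765732, in 3 lists).

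On the short arms the outermost regions of chromosomes 2, 5 and 8 lay at 264503 to 264903, 271307 to 271770 and 356698 to 357254, each called in 2 lists. Those of chromosomes 10, 12 and 3 lay at 977528 to 977960 in 4 lists, 1058703 to 1059226 in 2 lists and 2140165 to 2140496 in 4 lists.

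The 12 highest-ranked regions are those with the highest median percentile of fold within their lists among the 50 regions called in all 4 lists. Of the 12, 11 lay at long-arm ends, and of the 50 they were drawn from, 36 did. The 12 were chosen by the number of lists first and then by fold, so both are given as a description, the folds each on the scale of its own list. The region with the highest median fold lay on chromosome 6, from 167040600 to 167041125, 4074 kb from the long-arm end. Replicates 1 to 4 gave folds of 18.5, 15.3, 15.7 and 14.1. The summits held 33 to 52 reads and lay no more than 52 bp apart.

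The long-arm end of chromosome 10 held 3 of the 12. The region from 134350567 to 134351344 had folds of 16.6, 12.3, 17.6 and 13.7 in replicates 1 to 4. At 135122238 to 135123044, the outermost region of that end, the folds were 17.6, 11.4, 14.2 and 10.7. At 134261916 to 134262412 they were 13.3, 12.8, 14.9 and 8.02. Replicate 4 gave the lowest fold in the last 2 of these regions, and replicate 2 in the first.

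The long-arm end of chromosome 9 also held 3. The region from 139916482 to 139917054 reached 19.2 in replicate 1 and 12.7, 12.8 and 12.6 in the other replicates, which lay close together. At 139685125 to 139685884 the folds were 14.2, 10.1, 10.7 and 13.3, over a background of 4.01 to 5.12 times the genome level and with 36 to 65 summit reads. At 140499548 to 140500301 they were 11.9, 9.29, 10.9 and 11.3, and here too the lists lay close together.

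The remaining 5 lay on 5 arms. On chromosome 2 the region from 242294658 to 242295682, 1025 bp wide, had folds of 15.7, 13.1, 15.4 and 14.6. On chromosome 3 the region from 195163687 to 195164219 had folds of 11.9, 10.1, 13.9 and 13.5. On chromosome 8 the region from 146052379 to 146053023 had folds of 15, 10.7, 9.63 and 11.6. Replicate 2 gave the lowest fold on chromosomes 2 and 3, and replicate 3 on chromosome 8.

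The last pair differed more between lists. On the long arm of chromosome 12 the region from 133066324 to 133066830 had folds of 21, 16.7, 11.9 and 5.58, with 45 reads at the summit in replicate 1 and 10 in replicate 4. On the short arm of chromosome 10 the region from 977528 to 977960 had a fold of 22.5 in replicate 1, with 55 reads, and 8.65, 10.9 and 11.1 in replicates 2, 3 and 4, with 17, 24 and 23 reads. Replicate 1 held the highest fold in 9 of the 12 regions and replicate 3 in the other 3.

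**Figure D4:**
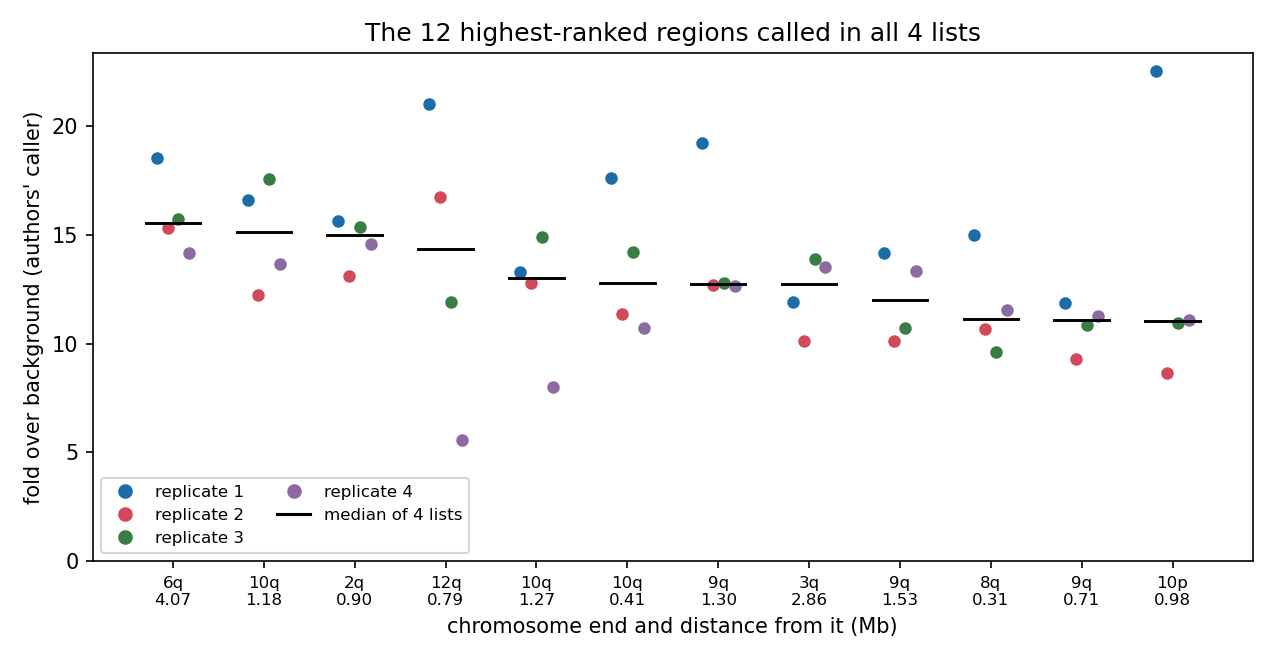
Deposited fold over background (vertical axis) for the 12 highest-ranked regions, named by chromosome arm and distance from its end in Mb and ordered by the median of the 4 lists (black bars). Points are the 4 replicates. The region of chromosome 12 ranges from 5.58 to 21, and the chromosome 9 region at 0.71 Mb from 9.29 to 11.9.

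Over all 171 regions the median of the folds of a region ran from 3.84 to 15.5 with a median of 6.90, and 21 regions reached 10. The regions called in 4 lists had a median of 9.25, those in 3 lists 6.57 and those in 2 lists 6.49. The median widths were 537, 438 and 402 bp in the same order, and 547, 456.5 and 391.5 bp in the interior. The summits of a region had a median spread of 52, 82 and 91.5 bp for regions in 2, 3 and 4 lists, and they lay within 100 bp in 74.3%, 68.1% and 58% of these regions. The width of merged peaks and the distance between the outer summits of a region can only grow as lists are added. Neither value therefore compares agreement between regions in 2, 3 and 4 lists. The widest spread, 713 bp, was in a region of the short arm of chromosome 2, from 739940 to 740964.

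The lists took unequal shares in the regions. Replicate 1 had a peak in 164 of the 171, replicate 3 in 150, replicate 4 in 90 and replicate 2 in 85, the same order as the lengths of the lists. All 4 lists called 50 regions, replicates 1 and 3 alone called another 50, and replicates 1, 3 and 4 called 25. Without replicate 1, 102 regions had peaks in at least 2 of the remaining lists. At the long-arm ends of chromosomes 8 and 9, 16 of the 57 regions were called in all 4 lists. On chromosome 8 these included the regions from 141521123 to 141522263, the widest of that end at 1141 bp, with folds of 13.3, 13.2, 10.1 and 9.26, and from 144328448 to 144329265, with folds of 11.5, 9.78, 10.8 and 11. On chromosome 9 they included the regions from 139257399 to 139257964, with folds of 11.8, 10.2, 12.3 and 9.72, and from 139377433 to 139378025, with folds of 11.7, 10.3, 9.74 and 11.6. These 4 regions were named after their values were seen.

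Support between lists was compared next, and its values at the ends and in the interior overlapped. Of the 171 regions, 29.2% were called in all 4 lists (95% Wilson interval 22.9% to 36.5%), against 23.8% of the interior regions (21.4% to 26.3%). The windows held 403 merged regions of any support, and 42.4% of them (37.7% to 47.3%) were in at least 2 lists, against 45.8% (43.9% to 47.8%) of 2598 in the interior. Just outside the rule were the 232 regions called in 1 list, of which 191 were from replicate 1. Their median fold was 5.35.

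In replicate 1, 46.3% of the peaks at the ends (41.2% to 51.5%) were shared with another list, against 51.3% in the interior. Replicate 2 had 92.4% (85.1% to 96.3%) at the ends against 92.7%. Replicate 3 had 86.3% (80.4% to 90.6%) against 84.4%, and replicate 4 had 90.1% (82.7% to 94.5%) against 88.5%. The ends were lower in 2 lists and higher in 2. The mean difference of -0.46 ± 3.17 percentage points (SD, n = 4) was smaller than the spread between lists (two-sided exact sign-flip permutation test, p = 0.875, adjusted p = 0.875) and became 2.90 points without replicate 1. These intervals cover counting error only.

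No difference in width beyond the spread between lists was detected. The median width of a consensus region was 445 bp at the ends and 448 bp in the interior, and the widest at the ends had 1141 bp. It was 407 bp at the short-arm ends, 481 bp at the long-arm ends and 511 bp at the long-arm ends of chromosomes 8 and 9. The median peak was 339.5, 322, 340 and 349 bp wide at the ends in replicates 1 to 4, and 345, 326, 327 and 336.5 bp in the interior. The difference was 4.0 ± 10.1 bp (SD, n = 4), positive in 2 of 4 lists (two-sided exact sign-flip permutation test, p = 0.5, adjusted p = 0.6).

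The fold at the ends was slightly higher in every list. At the ends the medians of replicates 1 to 4 were 6.363, 6.97, 6.62 and 7.15. In the interior they were 6.361, 6.77, 6.57 and 6.48. The values of the 4 lists at the ends overlap those of the interior. The difference was 0.23 ± 0.30 (SD, n = 4), higher in 4 of 4 lists (two-sided exact sign-flip permutation test, p = 0.13, the smallest possible, adjusted p = 0.188). Without replicate 4 it was 0.0866.

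The background under the peaks was higher at the ends too. Its median was 1.71, 1.78, 1.86 and 1.92 times the genome level at the ends in replicates 1 to 4, and 1.68, 1.71, 1.71 and 1.6 times in the interior. The difference of 0.142 ± 0.127 (SD, n = 4) was positive in 4 of 4 lists (two-sided exact sign-flip permutation test, p = 0.13, the smallest possible, adjusted p = 0.188). The 4 lists share 1 input, so their backgrounds are not independent. The SDs and the p given here do not measure the spread between inputs. Under the dense long-arm end of chromosome 8 the median background of the lists was 1.71 ± 0.04 times the genome level, against 1.68 ± 0.04 in its interior (SD, n = 4), and under that of chromosome 9 it was 1.91 ± 0.16 against 1.74 ± 0.12. Of the 171 regions, 24 had a background of 3 times the genome level or more wherever they were called. Among these were 7 at the long-arm end of chromosome 9 and 4 at that of chromosome 8. In the single lists, 17.5 ± 2.2% of the peaks at the ends had such a background, against 15.1 ± 2.1% in the interior (SD, n = 4). The difference of 2.38 ± 3.10 percentage points was smaller than the spread between lists. It ran from -0.200 in replicate 2 to 6.43 in replicate 3. Without peaks of at least 5 times the genome level, 166 regions remained. The part of copy number in the density was not tested.

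**Figure D5:**
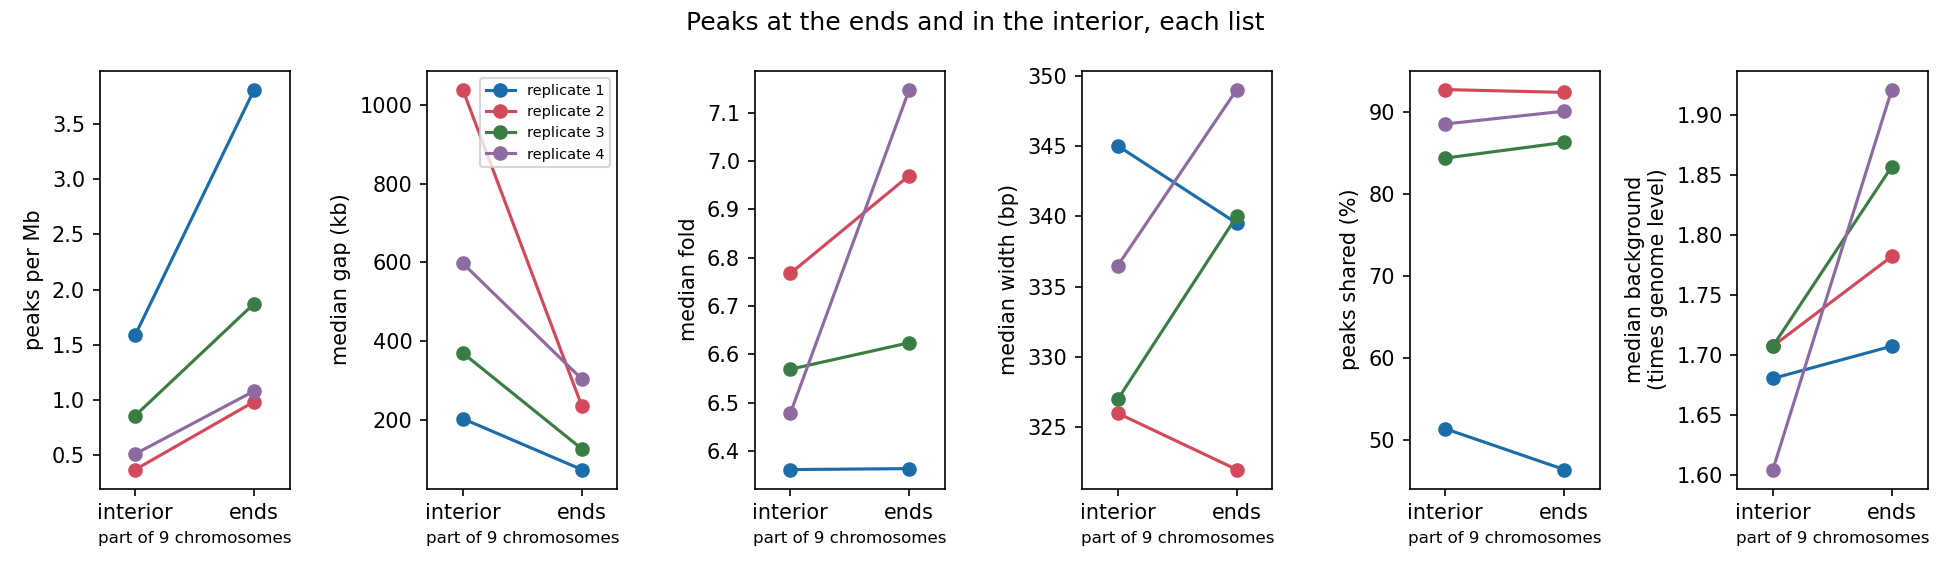
Values of the 4 lists in the interior and at the ends of the 9 chromosomes, each pair of points joined by a line. The panels show peaks per Mb, the median gap between neighbouring peaks, the median fold, the median peak width, the share of peaks shared with another list and the median background, on axes that do not start at 0. Density rises and the gap falls in all 4 lists, and the lines for width and for the shared peaks run both ways.

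The regions at the ends were more closely spaced. The median gap from one consensus region to the next was 139 kb at the ends and 367 kb in the interior. It was 120 kb at the long-arm ends, 346 kb at the short-arm ends and 49.5 kb at the long-arm ends of chromosomes 8 and 9. In peaks the median gaps of replicates 1 to 4 were 73.0, 235, 126 and 303 kb at the ends and 202, 1039, 369 and 597 kb in the interior. The gap was shorter at the ends in 4 of 4 lists, with a ratio of 0.359 ± 0.116 (SD, n = 4; two-sided exact sign-flip permutation test, p = 0.13, the smallest possible, adjusted p = 0.188). A gap within a short window cannot be long. With the interior cut into windows of 5 Mb the ratio was 0.634, and without chromosomes 8 and 9 it was 0.573. Both were added after the data had been seen.

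Chains of neighbours were few and short. Joining regions with gaps of at most 10 kb put 22 of the 171 regions (12.9%) into 11 pairs and none into longer chains, so that 160 separate sites remained. In the interior 8.06% of the regions were in chains. The share was 35.1% at the long-arm ends of chromosomes 8 and 9 and 1.75% at the other 16 ends, below that of the interior. All pairs lay at long-arm ends, 5 on chromosome 8, 5 on chromosome 9 and 1 on chromosome 10. The pair on chromosome 10, from 134261916 to 134266893, had the highest support, with 3.5 lists a region. On chromosome 8 a pair from 146052041 to 146053023 consists of a region called in replicates 1 and 3 and, 0.033 kb further, one of the 12 highest-ranked regions. The other pairs of chromosome 8 named by the rule spanned 141468027 to 141475020, 145017365 to 145027358 and 145149632 to 145159558, with 2.5 lists a region each. Some pairs of chromosomes 8 and 9 that were not named also had 2.5.

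Genes, promoters and G4 motifs at these positions were not analysed here, since the gene table used here is on GRCh38 and the peaks are on hg19.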

How the data were processed

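BG4 chromatin immunoprecipitation sequencing of LNCaP cells gave 1 deposited peak list for each of 4 replicates, and the input served as background. The submitters' processing notes name the build hg19 and the tools MACS2 2.1.1, SAMtools 1.11, Bowtie2 2.2.5 and bcl2fastq 1.8.4, without settings. The authors called peaks per replicate. For each peak the deposited values are the fold over local background, a ratio, and, on a −log10 scale, the p and q at the summit.

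Summit reads and background were recovered from the deposited fold and −log10 p, taking the fold as reads over background, each plus 1, and p as a Poisson tail. All peaks used gave a whole number of reads within 0.001 of the deposited −log10 p. The genome level is the smallest background found in a list. Peaks on chromosomes 1 to 22, X and Y overlapping by at least 1 bp were merged. Densities use the hg19 chromosome lengths, gaps of the assembly included. Positions are 1-based.

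Ends and interior were compared over the 4 lists with the exact sign-flip permutation test (on the log scale for ratios) and, per end, with the exact binomial test, at a threshold of 0.05. The regions, windows and lists were chosen with earlier results of these data known. Named regions are the 12 called in most lists (ties by median fold percentile), the outermost at each end, and 5 chains. The chains are those with most members, with ties broken by support and then by chromosome and position. Alternatives were a minimum of 3 or 5 for −log10 q, equally long lists, background under 5 times the genome level, each replicate left out, windows of 2 or 10 Mb, other lengths, at least 3 or all 4 lists, joined regions and summits within 100 bp. The scripts were tested on simulated data. Software was Python 3.11.15 with scipy 1.17.1, pandas 2.3.3, numpy 2.4.6 and matplotlib 3.10.9.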

Additional observations from a re-analysis of the deposited data

Results flagged for a closer look

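Among 40 groups of 4 values, 1 from each replicate, 3 had a value standing well apart. By chance about 1 group in 20 does. That rate does not hold for the 16 groups made of folds, since most of those regions were chosen by their number of lists and their fold percentile. At the short-arm end of chromosome 9, peaks of replicate 2 were 1.67 times as dense as in the interior, against 0.859 in the nearest replicate. The region of chromosome 12 from 133706795 had a fold of 12.9 in replicate 1, against 6.73 in the nearest. The region of chromosome 9 from 139916482 had a fold of 19.2 in replicate 1, against 12.8 in the nearest.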

How the results depend on the processing

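With 4 lists the exact permutation test gives p = 0.13 at best, so no comparison over lists could pass the threshold. The ratio of peak density, the ratio of gaps and the differences in fold, width and background kept their direction under every alternative run for them. The number of regions was 171, and 85 for equally long lists, 97 with a minimum of 3 lists, 50 with all 4, 106 without chromosomes 8 and 9, and 102 to 160 with 1 replicate left out, the lowest without replicate 1. The ratio of consensus densities was 2.18, and 3.25 with windows of 2 Mb, 1.85 with windows of 10 Mb, 2.68 in all 4 lists, 1.72 without chromosomes 8 and 9, and 2.11 to 2.32 with 1 replicate left out. It was 2.03 without the longest peak-free stretch of each interior and 2.22 with lengths up to the last peak. Without that stretch the ratio of the long-arm end of chromosome 9 was 4.57 in place of 5.81. The ratio of peak density ranged from 1.86 to 3.44. Of the 18 ends, 5 were denser than their chromosome, 3 when only regions in all 4 lists counted and 3 to 7 over all alternatives. The long-arm ends of chromosomes 2, 8 and 9 passed under all 15, that of chromosome 5 under 14 and the short-arm end of chromosome 7 under 13. The difference in shared peaks turned positive with a −log10 q of at least 5 (0.173 percentage points), for equally long lists (1.72) and without replicate 1 (2.90), and it stayed negative without each other replicate (-0.94 to -0.32). Of the 12 highest-ranked regions, 10 stayed in 4 lists under each of 4 settings. The region of chromosome 12 from 133066324 was called in 3 under 2 of them, and the region of chromosome 9 from 139685125 in 3 without peaks of high background. The alternatives without chromosomes 8 and 9 were added after the data had been seen. No pairing between groups of samples was possible because no second group shares the replicate numbers. Ends and interior were compared as pairs within each list. The weakest summits hold 6 or 7 reads, which limits what a single region can show.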
